A study of Drosophila melanogaster with 14 samples.

Results

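Undamaged wing imaginal discs of Drosophila melanogaster at 15 h were set against undamaged discs at 0 h, and the chosen set was the 4 libraries of these groups out of 14 in the series, 2 for the 15 h control and 2 for the 0 h control. The assay was ATAC-seq, which maps accessible chromatin through the sites where a transposase inserts its adapters. In the series the hours are counted from the induction of cell death in the regenerating discs, and the control discs were held under matching conditions without that induction. All 4 libraries are labelled as undamaged wing disc of the third instar. Each condition of each genotype took 10 discs, so a library is a pool of animals. No strain, allele, driver or inducing agent of the controls is given in the sources used here. The labels number the replicates 1 and 2 without stating separate animals, so the spread behind each p-value may be technical.

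The wing disc is the larval epithelial sac that forms the adult wing and notum, and during the last larval stage it grows, is patterned and then responds to rising pulses of the steroid hormone ecdysone. The hormone binds a heterodimer of the nuclear receptors EcR and Ultraspiracle, which switches on early genes such as br, Eip74EF and Eip75B, and later genes such as Hr3 and ftz-f1. In discs, the BTB zinc finger factor chinmo marks the earlier larval state, br the later one, and Eip93F, a helix-turn-helix factor, acts in the pupal wing, where it is needed to open and close enhancers. In ATAC-seq short fragments come from DNA free of nucleosomes, at promoters and enhancers, and fragments of mononucleosome length span 1 nucleosome beside such sites.

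A region was a merged stretch of overlapping or touching peaks of the 4 libraries. Peak strength is given as a percentile of the authors' fold, where 100 is the strongest: among the peaks of a list for opened and closed regions, and among the regions in all 4 lists for regions that all 4 share. A region is called opened where both 15 h lists and neither 0 h list had a peak, and closed where both 0 h lists and neither 15 h list had one. The sequences below are those of regions that the results turn on, from the RefSeq copy of Release 6 of the genome (dm6), plus strand, with capitals for matches to any of 14 short factor motifs searched on both strands. Eip93F is an intronic region of that gene at chr3R:21988280-21988381, and tau an intronic region of tau, which encodes a microtubule-binding protein, at chr3R:27651831-27651982; both were opened. The pb exon region, also opened, lies in a coding exon of the homeotic gene pb at chr3R:6709711-6709976, where the nearest start is that of the cuticle protein gene Ccp84Aa. The chinmo region is in an intron, was closed, and is shown from chr2L:1689519-1689688 around its summit. The Cad87A region, in an intron of a cadherin gene at chr3R:11903256-11903473, was also closed. The pb intron region at chr3R:6708985-6709152 and the region in an intron of Glut1, a glucose transporter gene, at chr3L:968312-968480 were in all 4 lists and ranked higher at 15 h.
Eip93F: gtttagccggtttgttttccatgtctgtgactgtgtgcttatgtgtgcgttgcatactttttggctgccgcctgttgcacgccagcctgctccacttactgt
tau: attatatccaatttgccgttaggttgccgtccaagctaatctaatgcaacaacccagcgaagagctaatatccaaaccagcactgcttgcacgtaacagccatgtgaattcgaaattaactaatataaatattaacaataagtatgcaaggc
pb exon: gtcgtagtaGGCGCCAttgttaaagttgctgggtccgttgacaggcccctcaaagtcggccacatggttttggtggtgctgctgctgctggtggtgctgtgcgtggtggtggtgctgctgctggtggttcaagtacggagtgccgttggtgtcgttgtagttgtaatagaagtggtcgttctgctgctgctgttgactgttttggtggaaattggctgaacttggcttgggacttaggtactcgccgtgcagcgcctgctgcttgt
chinmo: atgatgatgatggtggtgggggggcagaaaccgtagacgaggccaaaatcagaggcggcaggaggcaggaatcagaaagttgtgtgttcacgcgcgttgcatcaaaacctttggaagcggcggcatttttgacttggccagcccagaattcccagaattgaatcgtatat
Cad87A: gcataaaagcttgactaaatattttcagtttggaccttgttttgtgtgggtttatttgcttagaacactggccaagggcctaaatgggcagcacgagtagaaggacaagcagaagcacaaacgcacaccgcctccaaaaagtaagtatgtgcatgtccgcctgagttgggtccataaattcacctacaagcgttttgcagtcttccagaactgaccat
pb intron: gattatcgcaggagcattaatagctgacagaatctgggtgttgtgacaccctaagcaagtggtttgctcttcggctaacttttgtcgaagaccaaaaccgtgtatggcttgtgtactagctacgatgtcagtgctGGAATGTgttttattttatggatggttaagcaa
Glut1: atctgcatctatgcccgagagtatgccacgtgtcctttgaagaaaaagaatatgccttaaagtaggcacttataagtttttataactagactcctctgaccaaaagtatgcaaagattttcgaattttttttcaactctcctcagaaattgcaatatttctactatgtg

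Matches stood in 2 of these 7 stretches. The capitals in the pb exon stretch are the Mad motif GGCGCCA, which 2.53% of all 22269 regions in 2 or more lists held within 200 bp around the summit. The capitals in the pb intron stretch are the Scalloped motif ACATTCC read on the other strand, held by 1.84% of all regions. The remaining 5 stretches held none of the searched letters, which says nothing about the factors.

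The 15 h lists held 21572 and 23654 nucleosome-free peaks, and the 0 h lists held 19174 and 21703. Over all 14 libraries the lists ranged from 19174 to 24139. Read totals are not part of a peak list, so relative depth was taken from the background pile-up that the caller's fold and p imply. That background was 2.27 and 3.45 fragments at 15 h and 1.62 and 2.83 at 0 h. Pile-up at a peak was solved as a whole number, so different peaks can have equal folds and the same percentile. Peak number (p = 0.667), background (p = 0.667), median peak width (p = 0.667) and promoter share (p = 0.333) were compared by two-sided exact permutation tests over the libraries, and with 2 libraries against 2 the smallest p is 0.333. The most alike pair of nucleosome-free lists was not a replicate pair: 15 h library 2 and 0 h library 2 shared 76.3% of their joint regions, against 73.8% for the 15 h replicates and 71.7% for the 0 h replicates. Of the wing disc markers 7 of 7 epithelial marker genes (vg, nub, ap, rn, pdm2, wg, Dll) had a promoter region in all 4 lists. So had 6 of 6 genes of the tracheal list, 5 of 7 myoblast, 4 of 5 neuron or glia, 4 of 5 eye-antennal, 1 of 7 hemocyte and 0 of 5 fat body genes. The tracheal list held Dg, reached through name matching, in place of the intended marker dys, and Dg is among the 6. An open promoter therefore separates the wing disc label from fat body and hemocytes in these lists, and not from the other tissues.

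The accessible map was largely shared between the times. The nucleosome-free peaks merged into 27604 regions, of which 22269 were in 2 or more lists and 15281, or 55.4%, were in all 4. At 15 h 1023 regions were opened, 4.59% of the 22269, and 232 were closed, 1.04%. The neighbouring patterns were larger, with 2476 regions in both 15 h lists and 1 of the 0 h lists and 1109 in both 0 h lists and 1 of the 15 h lists. Opened regions were mostly weak: their median percentile within the list was 24.8 and 22.7 in the 15 h libraries, and that of closed regions was 14.5 and 17.6 in the 0 h libraries. With 2 libraries against 2, presence and absence at a single region cannot pass a test.

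The excess of opened over closed regions moved with list length and depth. When every list was shortened to the same length, 534 regions were opened and 509 closed. When a region also had to be strong enough to pass the weakest peak of the lists that lacked it at their own depth, 220 opened and 36 closed regions were left. Without 15 h library 1 the counts were 2908 opened and 344 closed, and without 15 h library 2 they were 2609 and 1250. Without 0 h library 1 they were 1815 and 1621, and without 0 h library 2 they were 2723 and 827, where the rule asks for 1 list in place of 2 on that side. The bars of counts under each setting show the nucleosome-free excess of opened regions nearly gone at equal list lengths.

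**Figure D1:**
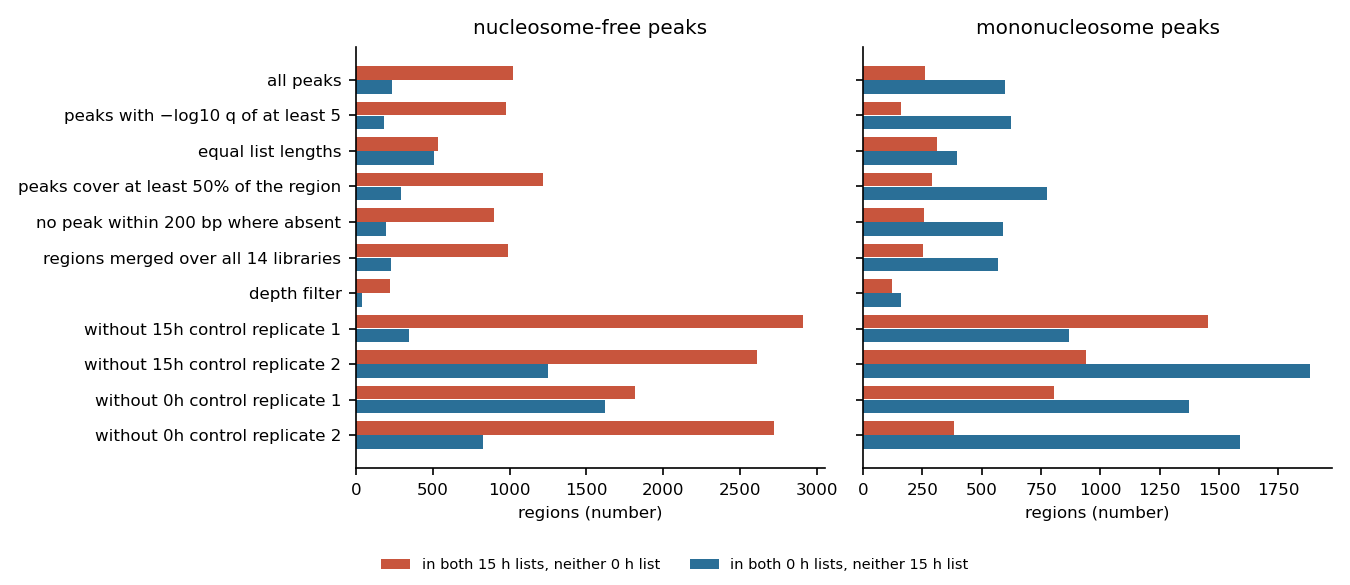
Numbers of regions (x axis) with a peak in both 15 h control lists and neither 0 h list (red) and the reverse (blue), under each processing setting (y axis), for nucleosome-free peaks on the left and mononucleosome peaks on the right. With all peaks the nucleosome-free counts are 1023 and 232 and the mononucleosome counts 259 and 597, and at equal list lengths they are 534 and 509, and 312 and 394.

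The strongest opened regions that also passed the depth condition lay in rRNA sequence, at promoters and in introns. On the X chromosome one fell in the rRNA pseudogene 5.8SrRNA-Psi:CR45863, at percentiles of 83.0 and 87.1 in the 15 h lists, where reads can be placed at many copies. Another, 62308 bp from the start of 2SrRNA:CR45864, stood at 85.2 and 78.8. Promoter regions opened at Dim1, which encodes a part of the spliceosome (percentiles 77.6 and 61.3), at CPT2, a carnitine palmitoyltransferase of mitochondrial fat import (72.9 and 61.3), at Coa7, a cytochrome oxidase assembly factor (69.2 and 61.3), and at CG10947 (69.2 and 74.99). A region in an intergenic stretch 10056 bp from the start of CG7031 stood at 80.6 and 71.5, and the tau intron region, 778 bp from the start of the ribosomal protein gene RpS10a, at 67.1 and 61.3. The CG10947 and Coa7 regions were listed in all 10 libraries that the calls did not use, so that 0 h library 1 and 0 h library 2 were the 2 of 14 without them.

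The Eip93F intron region was among the 10 strongest opened regions. It lay 15901 bp from the nearest start and stood at percentiles 59.9 and 72.7 in the 15 h lists. It was also listed in 1 of 2 control libraries at 25 h, in both L3 libraries (undamaged larval discs outside the time course), in 1 of 2 regenerating libraries at 0 h and in all 4 regenerating libraries at 15 and 25 h. The gene had 14 nucleosome-free regions, 2 of them opened and 1 closed, and the second opened region, at 30.3 and 12.9, did not pass the depth condition.

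Closed regions were fewer and weaker. The chinmo intron region, chr2L:1689381-1689688, stood at percentiles 71.2 and 45.9 in the 0 h lists and passed the depth condition. It was absent from both 25 h control lists and present in both L3 lists and both regenerating lists at 0 h, in 1 of 2 regenerating lists at 15 h and in 1 of 2 at 25 h. In mononucleosome fragments the same stretch of chinmo had a peak in both 0 h lists, at 17.3 and 42.2, and in neither 15 h list. That mononucleosome region did not pass the depth condition. Of the 12 nucleosome-free regions of chinmo 2 were closed and 0 opened, and its promoter region was in all 4 lists at 77.4 and 84.0 in 15 h libraries and 85.1 and 83.7 in 0 h libraries. Other closed regions of high rank lay in the Cad87A intron (46.3 and 40.7 at 0 h), at Rab35, which encodes a small GTPase of membrane recycling (42.9 and 46.5), in the piRNA cluster transcript lncRNA:flam (52.9 and 52.7), in the cyr intron (43.8 and 58.3) and in the intron of Snx27, a sorting nexin gene (38.8 and 46.9). The strongest was 235553 bp from the nearest annotated start, that of CG40813, on the X chromosome, at 71.2 and 58.3.

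Opened and closed regions alike were narrower and farther from promoters than the rest. Their median widths were 131 bp (opened) and 137 bp (closed), against 209 bp over all regions in 2 or more lists. Merging peaks of more lists can only widen a region, and most of the latter regions were in all 4 lists. The part of the merging in the width gap was not tested. Within 200 bp of a start lay 17.6% of opened and 19.8% of closed regions, against 36.6% of all. Coding exons held the summit of 8.8% of opened and 4.74% of closed regions, against 3.56% of all. Annotated transposable elements overlapped 4.2% of opened and 3.45% of closed regions, against 2.05% of all. With the depth condition the promoter shares were 30.0% of the 220 opened and 38.9% of the 36 closed regions.

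The other libraries, which the calls did not use, held these regions to different degrees. Of the 1023 opened regions 28.8% were in both 25 h control lists and 37.8% in neither, and of the 232 closed regions 9.48% were in both and 59.1% in neither. Of all regions in 2 or more lists 78.8% were in both 25 h control lists. The gap between opened and closed regions in that share, 19.3 percentage points, depended on the lists: it was 1.3 points at equal list lengths, with 37.3% of opened regions, and 10.1 points with the depth condition. Without 15 h library 1 the shares were 18.1% and 18.3%, and without 15 h library 2 the order turned round, with 14.6% of opened and 48.1% of closed regions. Without 0 h library 1 they were 41.2% and 5.18%, and without 0 h library 2 they were 48.3% and 7.62%. The L3 lists held 30.4% of opened and 47.8% of closed regions in both libraries. In regenerating discs the share of opened regions in both lists was 34.0% at 0 h, 44.2% at 15 h and 53.7% at 25 h, and that of closed regions was 42.2% (98 of 232) at 0 h, 51 of 232 at 15 h and 23.7% at 25 h. Depth differs between these libraries, and its part in the shares was not tested. The plot of shares by library shows opened and closed regions changing places between the 0 h and 15 h regenerating libraries.

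**Figure D2:**
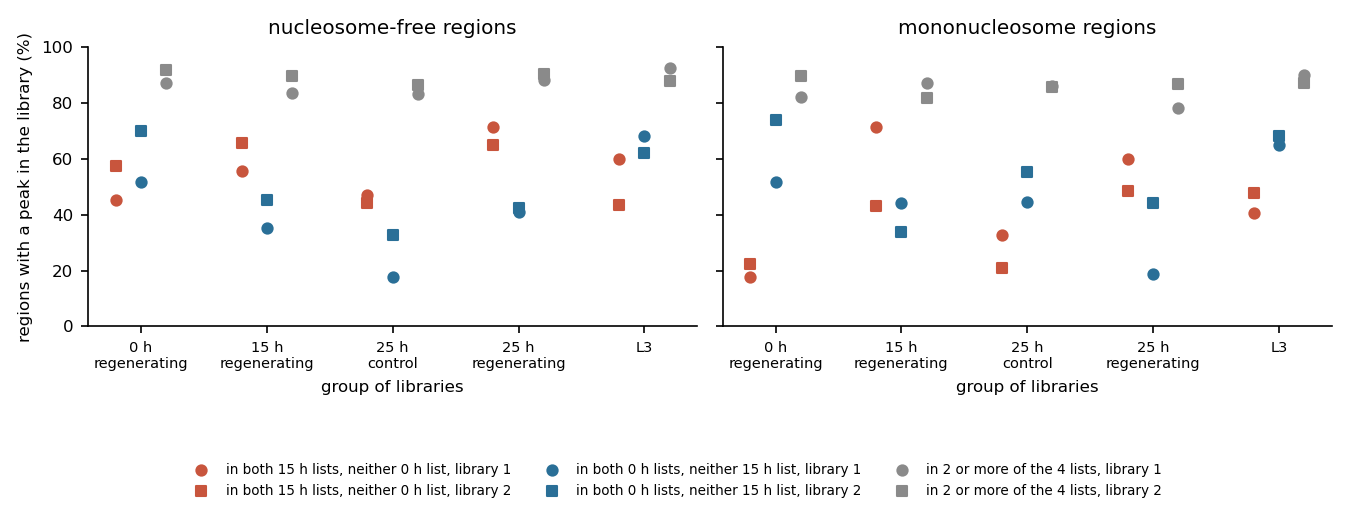
Share of regions with a peak in each library that the calls did not use (y axis, percent; circles library 1, squares library 2), for regions opened at 15 h (red), closed at 15 h (blue) and in 2 or more of the 4 control lists (grey), by group (x axis). Among nucleosome-free regions 46.9% and 44.1% of opened and 17.7% and 32.8% of closed regions had a peak in the 25 h control libraries.

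Regenerating discs at 15 h against 0 h gave a comparison that shares no library with the controls. It had 645 opened and 720 closed nucleosome-free regions. Of the 1023 control regions 73 were opened there as well, 7.14% of the control list and 11.3% of the regenerating list, against 1.05% of all control regions. Of the 232 closed regions 26 were closed there, 11.2% of the control list and 3.61% of the regenerating list, against 1.78% of all. The opposite call was also somewhat above its share over all regions. It was met by 26 of the opened regions, 2.54%, against 1.78% of all, and by 4 of the closed, 1.72%, against 1.05% of all.

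Genes of the ecdysone response had more opened than closed regions, which was also so over all regions. The list, chosen with earlier results of these data known, had 21 genes with 267 regions. Of the 267 regions 19, or 7.12%, were opened and 1, or 0.375%, was closed, against 4.59% and 1.04% of all. By gene, 9 of 21 had an opened region, 42.9%, against 10.7% of all 9600 genes with a region, and 1 of 21 had a closed one, against 2.89% of all; genes with many regions have more chances. With the depth condition 3 of the 19 opened regions were left. Among regions in all 4 lists the ranks went the other way: 22 of 184 were higher in both 15 h libraries than in both 0 h libraries and 50 were lower, 27.2%, where over all regions 16.3% were higher and 19.7% lower. Their median shift was -3.27 percentile points, 15 h minus 0 h, against -0.42 over all regions.

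The BTB zinc finger gene br had 30 regions, of which 6 were opened and 0 closed. The opened regions were weak, with percentiles between 1.53 and 22.8 in the 15 h lists, and 0 passed the depth condition. Of its 14 regions in all 4 lists 1 was higher and 6 were lower at 15 h. The clearest was a promoter region in an intron, chrX:1621925-1622271, at percentiles of 26.6 and 20.7 in 15 h libraries and 54.0 and 45.0 in 0 h libraries, among the regions in all 4 lists. The groups did not overlap, and in regenerating discs the values were 31.2 and 32.6 at 15 h and 59.2 and 44.4 at 0 h. Limma gave this region an unadjusted p of 0.0436 and an adjusted p of 0.783.

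Among the other ecdysone genes the start regions described here differed. The region at the start of Eip93F, chr3R:21948819-21949128, stood at 69.3 and 53.6 in 15 h libraries and 43.5 and 20.8 in 0 h libraries, so the groups did not overlap (limma unadjusted p = 0.04, adjusted p = 0.782). In the 25 h control libraries it stood at 64.8 and 58.2 on the ranks of the regions shared by all 6 controls. The region at the start of lncRNA:CR45938 within ftz-f1, which encodes a nuclear receptor of the prepupal response, stood at 66.8 and 72.7 in 15 h libraries and 94.7 and 93.9 in 0 h libraries, again without overlap (limma unadjusted p = 0.00116, adjusted p = 0.622). The same region stood at 77.5 and 84.1 in 15 h and 93.7 and 94.5 in 0 h regenerating libraries. A start region of Eip74EF, an ETS factor gene, stood at 41.9 and 28.1 in 15 h and 19.9 and 21.8 in 0 h libraries, while its other start region stood at 91.7 and 97.01 in 15 h and 98.4 and 96.2 in 0 h libraries. The nuclear receptor gene Eip75B had 40 regions, 4 of them opened and 0 closed, and 5 start regions in all 4 lists. Of these 5 only 1 is given here, at 18.0 and 11.8 in 15 h and 29.3 and 55.6 in 0 h libraries. The receptor gene EcR had 32 regions, 1 opened and 0 closed, and of 24 in all 4 lists 4 were higher and 8 lower at 15 h. An intronic region of EcR, chr2R:6132853-6133243, had the clearest shift, at 45.1 and 35.8 in 15 h and 3.01 and 12.5 in 0 h libraries (limma unadjusted p = 0.00685, adjusted p = 0.699). Hr3, a nuclear receptor gene of the middle of the cascade, had 1 opened intronic region, at 55.3 and 39.6 in the 15 h lists, which passed the depth condition.

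**Figure D3:**
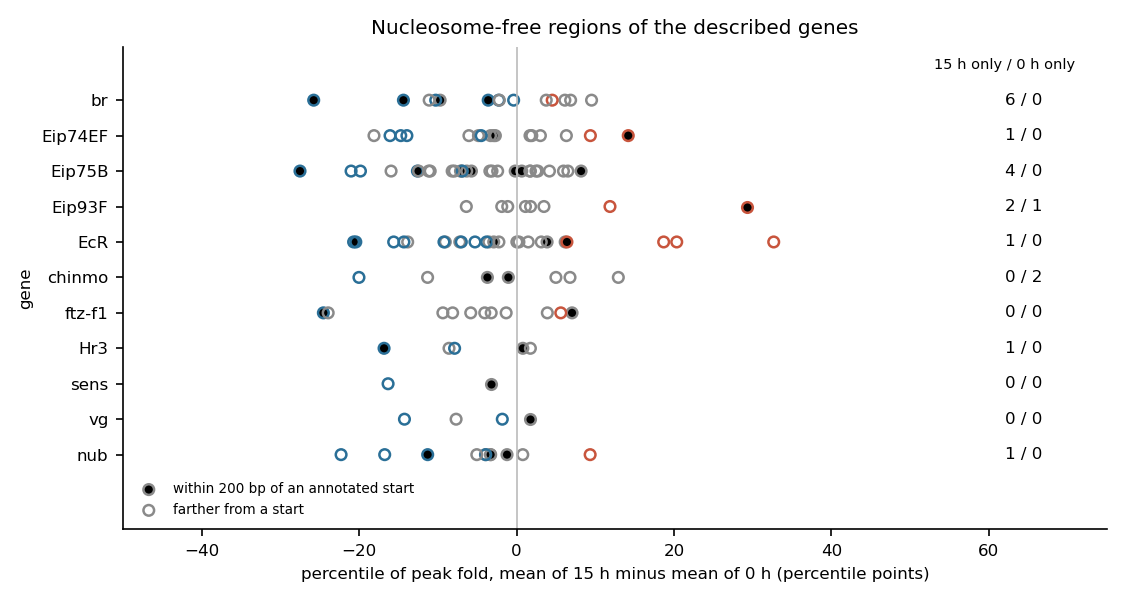
Difference in the percentile of peak fold between 15 h and 0 h control libraries (x axis, percentile points, mean of 15 h minus mean of 0 h) for each nucleosome-free region in all 4 lists of 11 genes (y axis). Red outlines mark regions higher in both 15 h libraries, blue outlines regions lower in both and grey outlines overlapping groups; filled circles lie within 200 bp of a start, and the numbers at the right count opened and closed regions, 6 and 0 for br and 0 and 2 for chinmo.

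The mononucleosome lists changed at several of the same places. At the 11 described genes 8 mononucleosome regions were closed and 2 opened. Of the 8 closed regions 6 overlapped a nucleosome-free region that was closed or ranked lower at 15 h, and 0 overlapped one that was opened or ranked higher. Over all 597 closed mononucleosome regions 19.3% overlapped one that was closed or ranked lower and 7.2% one that was opened or ranked higher. Of all mononucleosome regions 2.01% were opened and 4.64% closed, and 19.7% of the shared nucleosome-free regions ranked lower. The 6 were 2 in Eip74EF and 1 each in EcR, chinmo, sens and nub. Of the 2 opened regions 0 overlapped a nucleosome-free region that was opened or ranked higher, and 0 one that was closed or ranked lower. Over all 259 opened mononucleosome regions these shares were 16.6% and 0.386%. Of the 8 closed regions only that at sens passed the depth condition. At sens, a zinc finger gene of sensory organ precursors, the closed mononucleosome region stood at 37.1 and 62.1 in the 0 h lists and passed the depth condition. The nucleosome-free region there stood at 63.0 and 48.2 in 15 h and 75.8 and 68.0 in 0 h libraries. At nub, the wing POU factor gene, the intronic nucleosome-free region stood at 3.02 and 5.19 in 15 h and 23.8 and 18.0 in 0 h libraries. At a start of Hr3 the mononucleosome region was opened, at 30.9 and 34.0 in the 15 h lists, with the depth condition passed. Both fragment classes come from the same libraries, so they are not independent samples.

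Temporal factor genes had regions of both kinds. The list of 7 genes with 91 regions had 6 opened (6.59%) and 3 closed (3.3%), against 4.59% and 1.04% of all regions. The opened regions were 3 in mamo, a BTB zinc finger gene, 2 in Syp and 1 near Imp, and the closed ones 2 in chinmo and 1 in Imp; Imp and Syp encode RNA-binding proteins with opposite time courses in neural progenitors. One mamo intron region passed the depth condition, at 47.2 and 53.9 in the 15 h lists. The mamo region was in 1 of 2 L3 lists and in neither 25 h control list.

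Heat shock genes had the highest share of opened regions of the 19 lists. Of 54 regions 10 were opened, 18.5%, and 2 closed, 3.7%, against 4.59% and 1.04% of all. By gene, 7 of 17 had an opened region, 41.2%, against 10.7% of all genes with a region. Among the opened regions were 2 in Hsp70Ba and 1 in Hsp70Bb, which encode copies of the inducible chaperone, and 2 in the heat-inducible RNA gene lncRNA:Hsromega. The Hsp70 copies are nearly identical, so reads may be placed at the wrong copy. The 15 h percentiles of these 5 ran from 0.59 to 37.5, and 1 of the 10, in the coding exon of Hsp70Ba at 37.5 and 37.4, passed the depth condition. Of 25 regions of the list in all 4 lists 2 ranked higher at 15 h, 8.0%, and 12 lower, 48.0%, against 16.3% and 19.7% of all shared regions. Their median shift was -4.24 percentile points, against -0.42 over all regions.

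Of 354 regions at 33 wing patterning genes 9 were opened, 2.54%, and 7 closed, 1.98%, against 4.59% and 1.04% of all regions, and 0 of these passed the depth condition. At ct, a homeobox gene of the wing margin, 1 intronic region was closed (33.5 and 28.8 at 0 h) and 2 were opened (39.6 and 23.6, and 2.59 and 18.1, at 15 h). At inv, a posterior compartment homeobox gene, 2 regions were closed and 1 opened, at percentiles of 4.74 to 31.3. Among the regions in all 4 lists 33 of 244 ranked higher, 13.5%, and 53 lower, 21.7%. The selector gene vg had 7 regions with 0 opened and 0 closed, and its start region stood at 53.7 and 64.4 in 15 h and 59.0 and 55.8 in 0 h libraries. The cuticle and apical matrix list had 4 opened (5.33%) and 0 closed of 75 regions. Of its 54 regions in all 4 lists 13 ranked higher, 24.1%, and 5 lower, 9.26%. Over all regions 4.59% were opened, close to the share here, 16.3% ranked higher and 19.7% lower. The Ccp84Aa to pb stretch was among the regions of this list, with the opened exon region at 50.8 and 55.8 in the 15 h lists. The list also held the integrin gene mew, which is not a cuticle gene. It gave 20 of the 75 regions, with 0 opened, and 13 of the 54, with 3 higher and 2 lower. Cell cycle genes had 1 opened and 1 closed of 77 regions, an intronic region of E2f1 and a region near Myc.

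**Figure D4:**
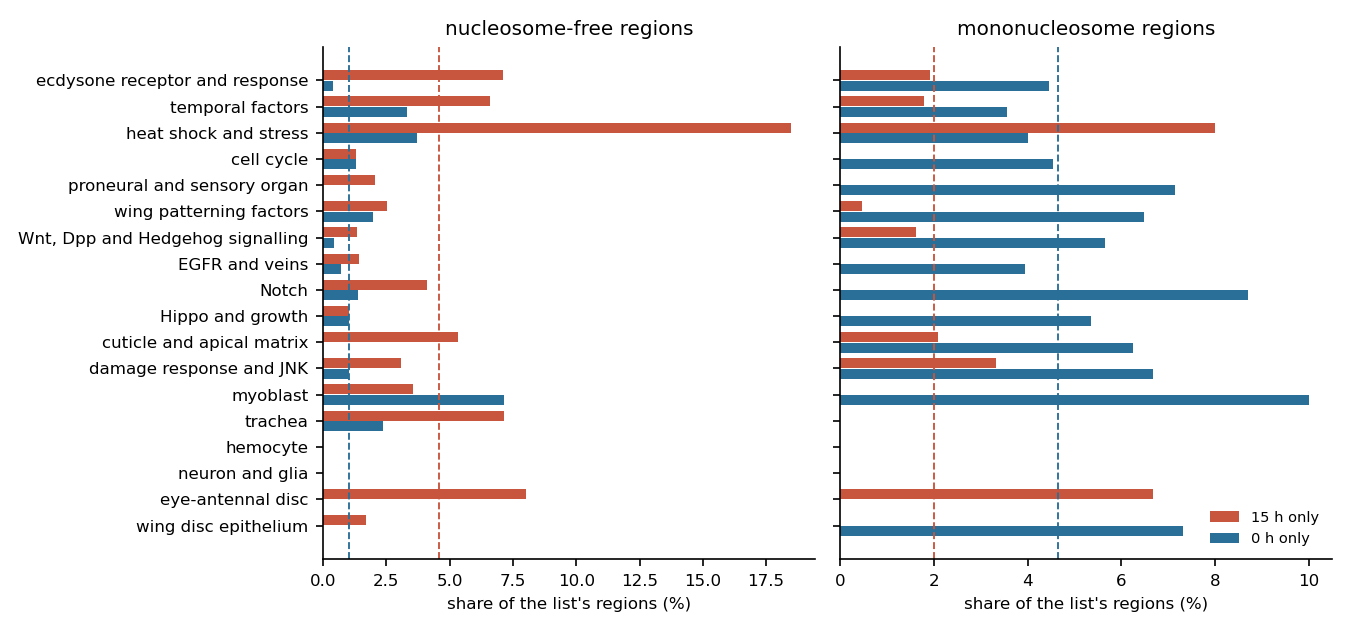
Share of each gene list's regions (x axis, percent) that were opened at 15 h (red, 15 h only) or closed (blue, 0 h only), for nucleosome-free regions on the left and mononucleosome regions on the right, with gene lists on the y axis. Dashed lines give the share over all regions in 2 or more lists, 4.59% and 1.04% on the left and 2.01% and 4.64% on the right; heat shock genes reach 18.5% opened.

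Markers of other cell types were counted in the same way. Of the 7 myoblast genes, all with a region, 4 had a closed region (twi, stumps, Him and Mef2) and 1 an opened one (twi), so that 4 of 56 regions, 7.14%, were closed and 2, 3.57%, opened, against 1.04% and 4.59% of all regions. The closed region near twi, the mesodermal helix-loop-helix gene, stood at 43.8 and 28.8 in the 0 h lists, and 0 of the 4 passed the depth condition. Among myoblast regions in all 4 lists 10 of 35 ranked higher, 28.6%, and 9 lower, 25.7%, against 16.3% and 19.7% of all shared regions. Genes of the tracheal list had 3 opened and 1 closed of 42 regions. Of 32 in all 4 lists 11 ranked lower at 15 h, 34.4%, against 19.7% of all shared regions, and 2 higher, 6.25%, against 16.3%. These counts include Dg, which stood in place of dys and had 5 regions, all 5 in all 4 lists, with 1 higher and 1 lower. Hemocyte and neuron or glia genes had 0 opened and 0 closed of 8 and 11 regions, and eye-antennal genes had 2 opened of 25, both at ey. In bulk discs fewer cells of a type and less open chromatin per cell cannot be told apart, and the part of other cell types in these results was not tested.

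Ranks were then compared over the 15281 nucleosome-free regions in all 4 lists, where list length does not enter. Limma on the normal scores of the ranks, with Benjamini-Hochberg adjustment, called 0.0% of regions higher and 0.0% lower at an adjusted p of 0.05, with a lowest adjusted p of 0.472, and 969 regions had an unadjusted p below 0.05. In 2490 regions, 16.3%, both 15 h percentiles were above both 0 h percentiles, and in 3006, 19.7%, both were below. Leaving out either 15 h library gave 0 higher and 0 lower calls. Leaving out 0 h library 1 gave 6 and 0, and leaving out 0 h library 2 gave 22 and 2. Each of these fits has 1 library in an arm, which is assumed to vary like the pair in the other arm.

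The region at the start of mbl had the lowest p of all regions. The gene encodes a splicing regulator of muscle and neurons, and the region, chr2R:17216196-17216662, stood at 87.0 and 90.2 in 15 h libraries and 17.5 and 2.94 in 0 h libraries (limma unadjusted p = 3.1e-05, adjusted p = 0.472). The groups were far apart, and the 25 h control libraries stood with 15 h, at 93.2 and 80.5 on the ranks shared by 6 controls. In regenerating discs the region stood at 93.6 and 84.1 at 15 h and 26.5 and 27.2 at 0 h. The adjusted p was 0.00653 without 0 h library 1 and 0.0286 without 0 h library 2, but 1.0 without 15 h library 1 and 0.645 without 15 h library 2, and it ran from 0.124 to 0.799 under the other settings.

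Other regions ranked higher at 15 h differed in where they stood at 25 h. The Glut1 intron region stood at 90.0 and 80.0 in 15 h and 27.7 and 4.63 in 0 h libraries, and at 24.4 and 35.8 at 25 h. The pb intron region stood at 80.6 and 76.1 in 15 h and 17.5 and 17.6 in 0 h libraries, and at 48.4 and 21.3 at 25 h. The promoter region of PolE2, a subunit of DNA polymerase epsilon, stood at 86.2 and 78.1 in 15 h and 7.96 and 38.2 in 0 h libraries, and at 34.3 and 15.3 at 25 h. The region in heph, which encodes a polypyrimidine tract binding protein, stood at 77.4 and 69.0 in 15 h and 27.7 and 4.63 in 0 h libraries, and at 73.0 and 63.3 at 25 h. The region near Rcd2 stood at 88.7 and 73.4 in 15 h and 8.6 and 37.2 in 0 h libraries, and at 56.3 and 64.4 at 25 h. None of the 20 named regions passed the adjusted threshold with all 4 libraries, where their adjusted p ran upward from 0.472.

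Regions ranked lower at 15 h included one in both fragment classes. The coding exon region of the mucin gene Muc30E, chr2L:9899608-9899711, 2056 bp from the start of RpS2, stood at 24.9 and 24.5 in 15 h and 85.1 and 63.9 in 0 h libraries. In regenerating discs it stood at 32.0 and 22.1 at 15 h and 74.0 and 77.4 at 0 h, and it was listed in 1 of 2 control libraries at 25 h. The mononucleosome region over it was closed, at 69.8 and 69.0 in the 0 h lists. The intronic region of CG45263 stood at 6.04 and 11.6 in 15 h and 56.4 and 50.1 in 0 h libraries, and the intronic region of beat-IIIc at 13.2 and 45.3 in 15 h and 76.4 and 74.2 in 0 h libraries. In the intron of ND-15, a subunit gene of respiratory complex I, the region stood at 21.7 and 18.7 in 15 h and 71.1 and 61.0 in 0 h libraries.

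**Figure D5:**
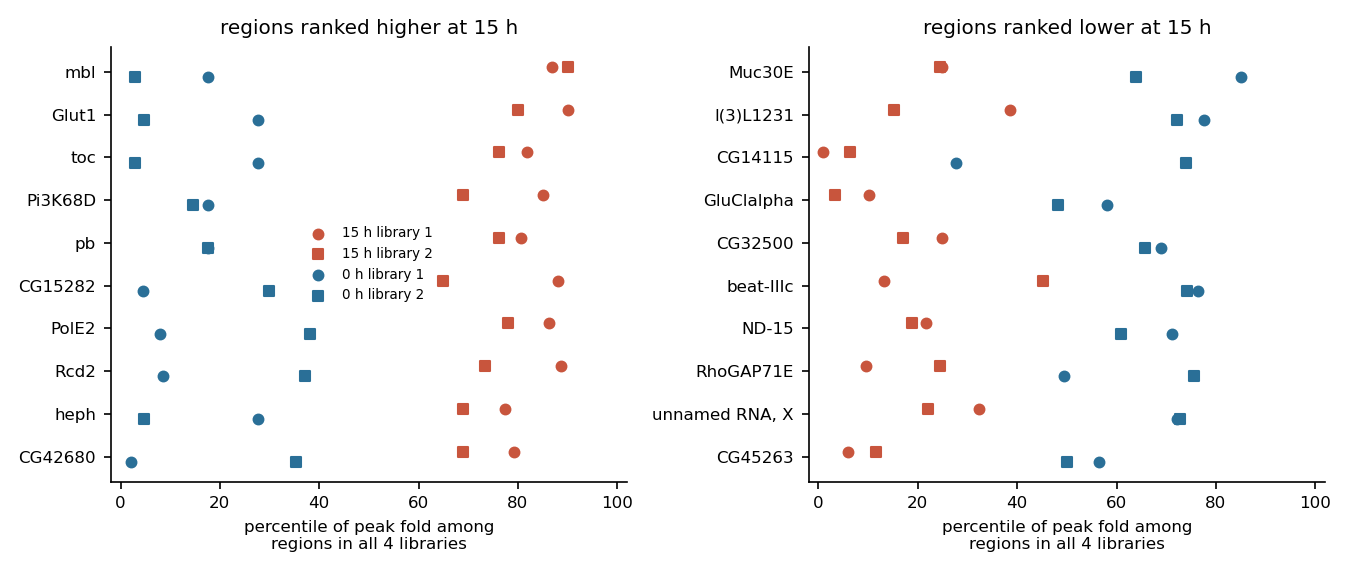
Percentile of the authors' peak fold among the 15281 regions in all 4 lists (x axis) in each 15 h control (red) and 0 h control (blue) library, for the 10 regions of largest shift upward (left) and downward (right), named by the gene that holds the region or has the nearest start. The mbl region is at 87.0 and 90.2 in 15 h libraries and at 17.5 and 2.94 in 0 h libraries.

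The sets of regions with shifted ranks differed in promoter share and in promoter motifs. Of regions ranked higher at 15 h 45.3% were within 200 bp of a start, and of those ranked lower 37.1%, against 41.2% of regions in all 4 lists. The motif of DREF (TATCGATA), a factor of housekeeping and replication genes, was held by 6.99% of higher and 1.76% of lower regions, against 3.74% of all 22269. The BEAF-32 motif (TCGATAG), whose letters overlap those of DREF, was held by 8.51% and 2.86%, against 5.33%, and the M1BP motif (GGTCACAC) by 6.55% and 3.13%, against 3.86%. The motif shares over all are those of regions in 2 or more lists, 36.6% of them within 200 bp of a start. Shifted ranks exist only for regions in all 4 lists, so the 2 bases differ. Among opened and closed regions the GAGA motif (GAGAGAG) was held by 4.59% and 9.48%, against 10.3% of all, and the nuclear receptor motif (AAGGTCA) by 0.978% and 2.16%, against 1.19%. The Scalloped motif was held by 3.13% and 3.02%, against 1.84%, and AP-1 (TGANTCA) by 3.32% and 3.88%, against 4.36%. Opened and closed regions are narrower than the rest, and the windows had 200 bp in all sets.

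Mononucleosome lists showed the reverse balance. They held 11145 and 13194 peaks at 15 h and 13371 and 12212 at 0 h, with backgrounds of 5.83 and 8.96 fragments at 15 h and 8.93 and 8.53 at 0 h. Of 12875 regions in 2 or more lists 259 were opened, 2.01%, and 597 closed, 4.64%. At equal list lengths 312 were opened and 394 closed, and with the depth condition 120 and 158. Without 15 h library 1 they were 1454 and 867, without 15 h library 2 941 and 1882, without 0 h library 1 806 and 1372, and without 0 h library 2 383 and 1587. By gene, 3.65% of 8173 genes with a region had an opened and 8.12% a closed one.

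Transposable elements overlapped 12.4% of opened and 3.18% of closed mononucleosome regions, against 2.94% of all. With the depth condition these shares were 20.0% of opened and 5.06% of closed regions. The opened share was 6.33% without 15 h library 1 and 6.59% without 15 h library 2. Coding exons held 27.4% of opened and 12.2% of closed summits, against 11.7% of all, but 18.3% and 16.5% with the depth condition. Promoters held 38 of 259 opened and 215 of 597 closed regions, against 47.5% of all. The strongest opened ones lay over a Rt1b element near lncRNA:CR46253 (79.3 and 78.2 in the 15 h lists), over an R1A1 element near 28SrRNA-Psi:CR45860 (70.1 and 78.8), in an intron of the heterochromatic gene Myo81F (69.5 and 73.8) and at the spliceosomal RNA gene snRNA:U1:21D (75.1 and 68.3). Except at the Myo81F intron, where no element was annotated, these are repeats or multicopy genes, where reads can be placed at several copies. The strongest closed ones lay at the promoter of slf, a cuticle integrity gene (80.4 and 82.6 in the 0 h lists), at CtsK1, a cathepsin gene (63.8 and 68.7), and in Hydr2, a hydrolase gene (66.3 and 57.0). At 13 of 33 wing patterning genes, 39.4%, a mononucleosome region was closed, against 8.12% of all genes. These genes have many regions, and by region 14 of 216 were closed, 6.48%, against 4.64% of all. The regions at ct, salm and tup passed the depth condition, 3 homeobox or zinc finger genes named after their values were seen.

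The 2 fragment classes shifted together at a minority of sites. Of the 1023 opened nucleosome-free regions 29, 2.83%, overlapped a mononucleosome peak in both 15 h and neither 0 h list, and 5, 0.489%, the reverse. Of the 232 closed ones 0 had the 15 h pattern and 29, 12.5%, the 0 h pattern. Over all regions in 2 or more lists the shares were 0.525% and 3.05%. Among regions in all 4 lists they were 0.294% and 2.77%, from 45 and 424 regions. More than any pattern, 54.5% of opened and 53.9% of closed regions overlapped no mononucleosome peak in any list, against 22.4% of all regions.

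Mononucleosome ranks over 8677 regions in all 4 lists gave 0.0% higher and 0.0% lower by limma at an adjusted p of 0.05, with a lowest adjusted p of 0.246 and 519 regions at an unadjusted p below 0.05. In 18.7% both 15 h percentiles were above both at 0 h, and in 17.7% below. Ranking by the authors' p in place of fold gave 4 higher and 0 lower calls. Leaving out either 15 h library gave 0 calls. Leaving out 0 h library 1 gave 11 higher and 2 lower, and leaving out 0 h library 2 gave 11 and 1. Between regenerating and control discs, which share no library, 18.1% of the control opened regions (9.51% of the regenerating list) and 12.9% of the control closed regions (18.1% of the regenerating list) had the same call, against 1.67% and 2.08% of all regions. Across 8013 regions in all 8 lists the rank shift in regenerating discs had a Pearson r of 0.357 with that in control discs, and across 14165 nucleosome-free regions r was 0.209; regions are not independent replicates.

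The same opened and closed mononucleosome regions were looked up in the libraries outside the comparison. Of the 259 opened regions 31 were in both lists of regenerating discs at 0 h, against 36.7% at 15 h and 34.0% at 25 h, and of the 597 closed regions 45.2% at 0 h, 22.3% at 15 h and 13.2% at 25 h. In undamaged discs at 25 h both lists held 16.6% of opened and 31.3% of closed regions, and in L3 discs 21.2% and 49.1%. The 25 h order turned round without a 0 h library, with 41.3% of opened and 20.2% of closed regions without library 1, and 27.7% and 19.1% without library 2; without 15 h library 1 the shares were 10.9% and 40.0%, and without 15 h library 2 they were 7.76% and 56.9%. Over all mononucleosome regions these shares lay between 74.6% and 82.3%. Among nucleosome-free regions ranked higher in the 15 h controls and shared by the regenerating lists, 26.1% of 2322 ranked higher and 12.2% lower at 15 h in regenerating discs, against 20.9% and 17.5% of all 14165. Among those ranked lower, 17.2% of 2786 ranked higher and 22.3% lower.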

How the data were processed

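Each library had a deposited peak list for nucleosome-free and one for mononucleosome fragments, 28 lists for 14 libraries, of which the 4 control libraries at 15 h and 0 h were compared. The submitters' processing notes name STAR 2.4.0j, MACS2 and dm6; how fragments were split by length, and the peak threshold, are unknown here. The authors' fold, a ratio over the caller's background, and the deposited −log10 p and −log10 q values served to rank and filter the peaks of each list. The deposited score was 10 times −log10 q. Each list belongs to 1 library.

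Peaks were merged where they overlapped by 1 bp or touched, with Python 3.11.15. Background pile-up was solved from fold and p under a Poisson model with a pseudocount of 1. The depth condition put the lower fold of a region on the background of each list lacking it and asked the lower Poisson limit to pass that list's weakest p. Normal scores of fold ranks among regions in all 4 lists were tested by limma 3.58.1 with Benjamini-Hochberg adjustment. The methods were tested on simulated data. Regions went to the gene of the nearest start or containing gene (BDGP 6.54, Ensembl release 115, with 99.83% of 30593 start codons read as ATG), and promoters were within 200 bp of a start.

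Members, lists (258 symbols in 19 lists, 5 matched by an older name) and tests were chosen with earlier results of these data known. Named were the 10 opened and 10 closed regions of highest rank, 10 with higher and 10 with lower rank, 5 opened and 5 closed mononucleosome regions, up to 4 genes per list and all regions of 11 genes; text examples were taken from these, and counts of list members otherwise. The alternatives were a −log10 q minimum of 5, equal list lengths, peaks covering at least 50% of a region, no peak within 200 bp, regions merged over 14 libraries, the depth condition, other ranks, a replicate block and leaving out each library.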

Additional observations from a re-analysis of the deposited data

Results flagged for a closer look

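The following regions moved in opposite directions in undamaged and regenerating discs between 0 h and 15 h, with every library on its side; the difference was not tested. The coding exon region of CG13675 on 3L was closed in control discs, where its lower 0 h percentile was 40.0, and was in both 15 h and neither 0 h regenerating list. Regions near salr, a zinc finger gene of the central wing, and in introns of Ser, a Notch ligand gene, and msn, a kinase gene upstream of JNK, were opened in control discs at lower 15 h percentiles of 8.66, 0.22 and 9.49, and were in both 0 h and neither 15 h regenerating list. The promoter region of Pi3K68D, a phosphoinositide kinase gene, ranked higher at 15 h in control discs, at 85.1 and 69.0 against 17.5 and 14.5 at 0 h, and in regenerating discs differed by -21.5 percentile points, 15 h minus 0 h.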

How the results depend on the processing

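The opened and closed counts moved with list length, depth and the libraries used. Equal list lengths gave 534 opened and 509 closed nucleosome-free and 394 closed mononucleosome regions, and the depth condition gave 220 and 36 nucleosome-free and 120 and 158 mononucleosome regions. A −log10 q of at least 5 gave 160 opened mononucleosome regions. Leaving out 1 library gave 1815 to 2908 opened and 344 to 1621 closed nucleosome-free and 383 to 1454 opened and 867 to 1882 closed mononucleosome regions. In the rank tests, leaving out 1 library gave 0 to 22 higher and 0 to 2 lower nucleosome-free and 0 to 11 higher and 0 to 2 lower mononucleosome calls; ranking by −log10 p gave 4 higher mononucleosome calls. Apart from the leave-outs, the cause was not tested. Replicate numbers were not shown to pair the libraries (correlation of same-numbered deviations 0.161 for nucleosome-free and -0.005 for mononucleosome ranks, 2 pairs each); with a replicate block 9 mononucleosome regions were higher and 3 lower, and 0 nucleosome-free regions passed. The 20 named rank shifts reversed in 0 of 177 recomputations. They were picked from these same ranks, among regions whose groups do not overlap. Leaving out 1 library therefore could not reverse them, and the replicate block leaves the difference unchanged. The lack of reversals is thus largely set by the choice of regions and is no support for the shifts. A peak list holds no reads below its threshold, so absence means only that no peak was listed at that depth.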

Other observations

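Over all mononucleosome regions in all 4 lists 18.7% ranked higher in both 15 h libraries and 17.7% lower, and gene lists differed from this to varying degrees. Of 34 cell cycle regions in all 4 lists 12 were higher in both 15 h libraries and 3 lower, with a median shift of 4.29 percentile points, against 0.23 over all mononucleosome regions. For Wnt, Dpp and Hedgehog genes 28 of 88 were higher and 6 lower, with a median of 4.1, and for Hippo and growth genes 13 of 43 were higher and 6 lower, with a median of 3.91. The Notch list had 10 higher and 3 lower of 33. It held dl, which encodes the factor Dorsal, and the ligand gene Delta was not among its genes with a region. Of the 3 lower regions 1 was that of dl. Some lists of other kinds leaned the same way, with 27 higher and 13 lower of 147 for wing patterning and 10 and 5 of 37 for the cuticle list. Damage response genes had 10 and 3 of 39. Other lists leaned little or not at all. EGFR and vein genes had 12 and 11 of 57, ecdysone genes 25 and 21 of 116 and temporal factor genes 8 and 7 of 43. Proneural genes had 5 and 5 of 23, the tracheal list 6 and 6 of 22 and eye-antennal genes 1 and 2 of 10. The nucleosome-free medians of the first 4 lists were 0.14, -0.425, -0.625 and -1.32 percentile points. These are descriptions of 4 libraries, with no test.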
